A study of Mus musculus with 6 samples.

Results

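The 2′-5′-oligoadenylate synthetase (OAS) family was examined in 6 RNA sequencing libraries of mouse macrophages. Its members were 8 genes chosen by name, Oas1a, Oas1b, Oas1c, Oas1g, Oas2, Oas3, Oasl1 and Oasl2, out of 55487 genes in the count table. Each name was matched to a single row through the gene identifier. The rule goes by gene name alone, although earlier results of these data were known when the family was chosen.

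The macrophages came from bone marrow. TpMos and mature Ly6Chi monocytes, named here as in the labels, were sorted apart, and each population was then grown for 7 days in medium with CSF-1, which drives macrophage formation. The 3 libraries of TpMo-derived macrophages and the 3 libraries of Ly6Chi-derived macrophages therefore share the tissue, the culture time and the growth factor, and differ in the sorted starting cell. The strain, genotype and age of the mice, the CSF-1 concentration of each sample and whether the libraries came from separate animals or cultures are not given in the sources used here, and no stimulus beyond CSF-1 is listed. The p-values below thus rest on the spread among these libraries alone, and that spread may be technical.

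OAS enzymes sense double-stranded RNA, a frequent product of viral replication, and respond by joining ATP into short 2′-5′-linked chains called 2-5A. The chains act as a second messenger of the antiviral response inside the cell. Type I interferon raises OAS transcription through interferon-stimulated response elements in the promoters, and macrophages are among the cells in which the genes are readily induced. The OAS-like genes carry ubiquitin-like domains behind the OAS fold.

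The promoter sequences are shown first because a short element near the start is shared by several members. RefSeq promoter windows on GRCm38.p6, each covering 250 bases before and 50 bases after the transcription start, were at hand for 6 of the 8 members and not for Oas2 or Oas1b. Both strands were searched for the core of the interferon-stimulated response element, written here as GAAA, any 2 bases, then GAAA, and for the gamma-activated site, TTCNNNGAA, where N is any base. Capitals mark the response element matches in the stretches of the 4 windows that held an exact one, read 5′ to 3′ along the gene's own strand.

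Oas1a, chr5:120907526-120907675, minus strand: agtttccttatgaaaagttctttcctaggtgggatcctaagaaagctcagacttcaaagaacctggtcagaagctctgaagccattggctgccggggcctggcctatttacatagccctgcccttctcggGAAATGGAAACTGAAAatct
Oas1g, chr5:120887614-120887763, minus strand: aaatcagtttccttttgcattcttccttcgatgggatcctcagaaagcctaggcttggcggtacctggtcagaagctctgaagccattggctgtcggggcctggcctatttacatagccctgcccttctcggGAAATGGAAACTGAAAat
Oas1c, chr5:120812515-120812634, minus strand: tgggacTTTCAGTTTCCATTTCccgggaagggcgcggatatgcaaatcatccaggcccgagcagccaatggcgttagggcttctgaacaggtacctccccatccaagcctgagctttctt
Oas3, chr5:120777660-120777809, minus strand: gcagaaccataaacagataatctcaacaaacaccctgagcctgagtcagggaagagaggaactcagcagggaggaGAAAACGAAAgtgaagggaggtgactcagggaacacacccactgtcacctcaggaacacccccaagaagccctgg

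In Oas1a and Oas1g the capitals end 5 and 3 bases before the transcription start. They hold 2 overlapping matches in 1 run of 16 bases, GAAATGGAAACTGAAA. The same run lies in the Oas1c window on the opposite strand. The Oas1c stretch shown is the whole interval between Oas1c and its head-to-head neighbour Oas1b, whose first bases lie 121 bases apart. Read toward Oas1b, the run ends 7 bases before the first base of that gene in the deposited table. The single match of Oas3 lies 75 to 66 bases before its start.

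An exact response element core was found in 4 of the 6 member windows and in 3.44% of the 32851 windows of the RefSeq table. The 4 windows are not independent, since those of Oas1a, Oas1g and Oas1c hold the same 16-base run. Oasl1 and Oasl2 held no exact match. With 1 mismatch allowed, all 6 windows held a match, as did 35.4% of all windows. The gamma-activated site was found only in Oas1a among the 6 windows, 98 to 90 bases before the start, against 8.3% of all windows. The 16-base run, searched for after the matches had been seen, was present in 7 windows of 5 genes (0.0213% of windows), namely Oas1a, Oas1c, Oas1g, Apol9a and Apol9b. These matches are letters in a fixed window and no binding was measured. Their relation to the fold changes given below was not tested.

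**Figure D1:**
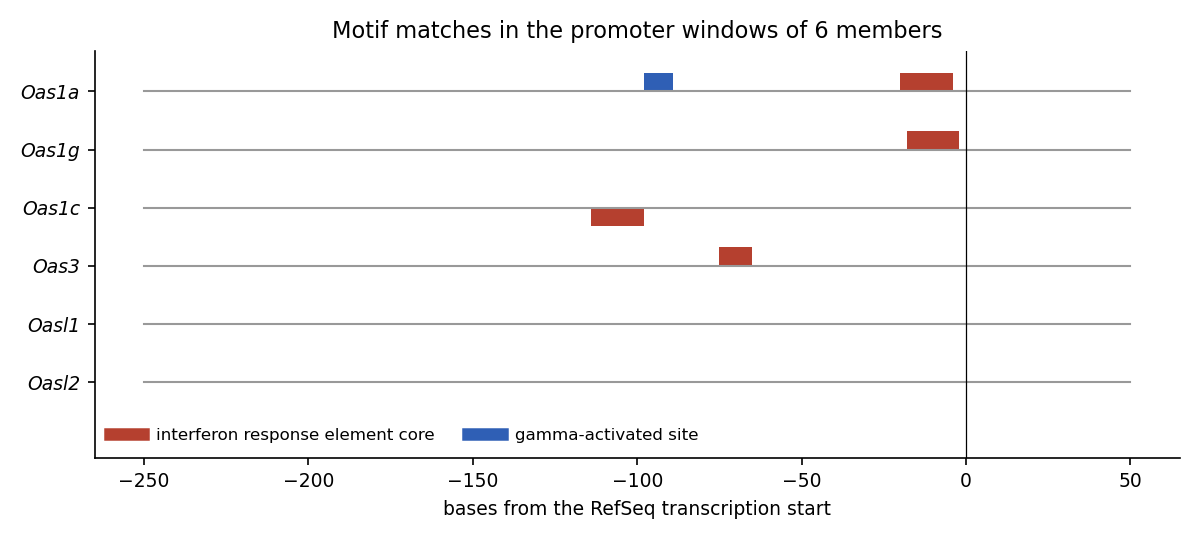
Matches to the interferon-stimulated response element core (red) and the gamma-activated site (blue) in the promoter windows of 6 members, by distance in bases from the RefSeq transcription start. Boxes above a line lie on the gene's strand and boxes below it on the opposite strand, overlapping matches are drawn merged, and Oasl1 and Oasl2 held no exact match.

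Of the 8 members, 6 rose in TpMo-derived macrophages, none fell and 2 did not pass the test. Those that rose were Oas1a, Oas1g, Oas2, Oas3, Oasl1 and Oasl2, by 2.04-fold to 4.21-fold. Oas1b and Oas1c, with group means between 1.83 and 3.27 CPM, had adjusted p-values of 0.481 and 0.687. CPM are counts scaled to the library size after TMM, a correction for differences in composition between libraries. A gene was called at an adjusted p under 0.05 (edgeR's quasi-likelihood test, Benjamini-Hochberg adjustment over the 13140 genes tested). Among all genes tested, 12.3% were called in either direction, 6.54% were called higher in TpMo-derived macrophages and 5.79% lower. The fitted rise of each of the 6 members was at least 2-fold, while 2.21% of all genes tested were called higher by at least that much. The 95% intervals of Oas3 and Oas2 began below 2-fold, at 0.78 and 0.99 on the log2 scale. Without TpMo-derived replicate 3 the fitted value of Oas3 was 0.9. All 8 members passed the filter on low counts. Their median log2 fold change was 1.33 (range 0.36 to 2.07), beside a median of 0.01 over all genes tested. In such bulk samples, fewer cells that transcribe a gene and less RNA per cell cannot be told apart.

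The 6 members that rose also had no overlap between the groups, that is, each of the 3 TpMo-derived libraries lay above each of the 3 Ly6Chi-derived ones. Such separation with TpMo-derived libraries higher was seen for 15.3% of all genes tested. The plot of each library's level shows the gap for these members and the mixed points of Oas1b. Summed over the 8 members, the TpMo-derived libraries held 995, 946 and 1127 CPM and the Ly6Chi-derived libraries 415, 386 and 344 CPM. The family total was thus 2.68 times as high in TpMo-derived macrophages (1023 ± 93.4 against 382 ± 35.9 CPM, SD, n = 3 each).

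**Figure D2:**
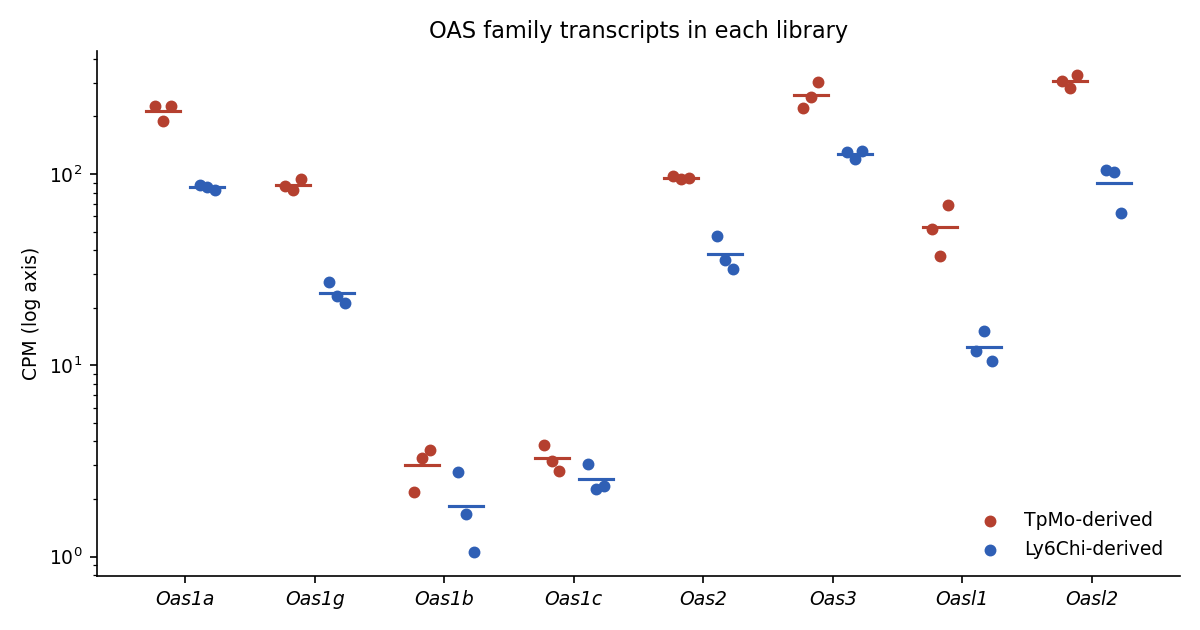
Level of each member in every library, in CPM on a log axis. Points are libraries in replicate order, short lines are group means, red is TpMo-derived and blue Ly6Chi-derived; the 6 called members show no overlap, while the groups overlap for Oas1b and Oas1c.

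**Figure D3:**
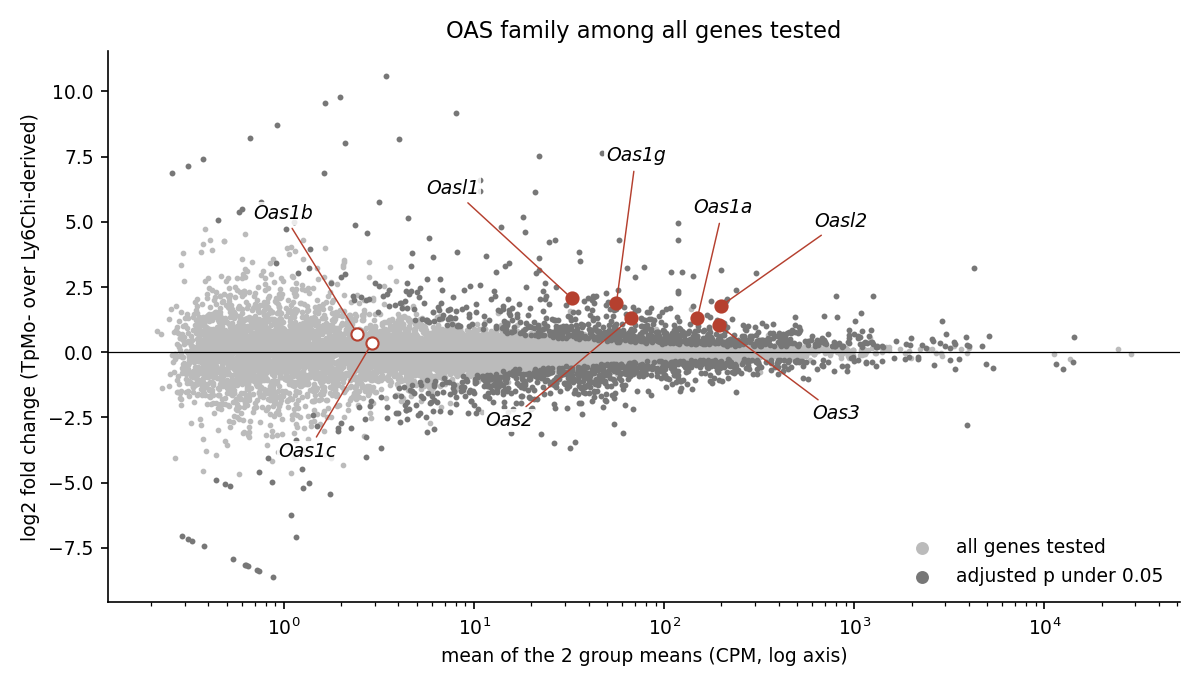
Log2 fold change (TpMo-derived over Ly6Chi-derived) against the mean of both group means in CPM (log axis) for the 13140 genes tested. Dark grey points passed an adjusted p of 0.05, filled red circles are called members, open circles are the members that were not called, and Oas1b and Oas1c sit in the low-count region where the spread of all genes is widest.

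The classical synthetases were taken first. Oas1a encodes an active mouse OAS1 enzyme that makes 2-5A. Its level was 226, 190.5 and 227 CPM in the TpMo-derived libraries and 87.4, 85.5 and 82.5 CPM in the Ly6Chi-derived libraries. Both groups were tight and well apart, with means of 214 ± 20.7 and 85.1 ± 2.46 CPM (SD, n = 3). The difference was 2.52-fold, a log2 fold change of 1.33 ± 0.09 (SE, 95% interval 1.13 to 1.54), with an adjusted p of 2.26e-05 in the edgeR test.

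Oas1g is the closest copy of Oas1a and also encodes an active synthetase. It stood at 86.8, 83.0 and 94.7 CPM in TpMo-derived libraries and at 27.2, 23.1 and 21.3 CPM in Ly6Chi-derived libraries. Every TpMo-derived value was above every Ly6Chi-derived value. Oas1g rose 3.69-fold, or by 1.89 ± 0.14 (SE) on the log2 scale, and the adjusted p of the edgeR test was 2.4e-05.

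Oas2 encodes a larger synthetase made of repeated OAS units. The TpMo-derived libraries held 97.8, 93.7 and 95.9 CPM and the Ly6Chi-derived libraries 47.4, 35.6 and 31.9 CPM. The TpMo-derived values were almost level, and Ly6Chi-derived replicate 1 was the highest of its group without reaching them. The rise was 2.5-fold (log2 fold change 1.32 ± 0.15, SE; adjusted p = 0.00033, edgeR).

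Oas3 encodes the largest synthetase of the family, known in human cells as a main source of 2-5A. Its level was 222, 254 and 303 CPM in TpMo-derived macrophages and 131, 120.1 and 132 CPM in Ly6Chi-derived macrophages. TpMo-derived replicate 3 was the highest, and the groups did not overlap. Oas3 had the smallest rise of the 6 members, 2.04-fold. On the log2 scale this was 1.03 ± 0.11 (SE, 95% interval 0.78 to 1.27; adjusted p = 0.000247, edgeR).

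The OAS-like genes were taken next. Oasl1 encodes a protein without synthetase activity that is known to hold back translation of Irf7 mRNA in mice. Its values were 51.5, 37.4 and 69.1 CPM in TpMo-derived libraries and 11.9, 15.2 and 10.5 CPM in Ly6Chi-derived libraries. TpMo-derived libraries spread more for Oasl1 than for any other member called (coefficient of variation 30.2%), yet the lowest of them stayed above the highest Ly6Chi-derived library. The fitted difference was 4.21-fold, the highest of the 8 with all 6 libraries. Its interval overlapped those of Oas1g, Oasl2, Oas2, Oas1a and Oas1b. Without TpMo-derived replicate 3 Oasl1 and Oas1g both stood at 1.83 on the log2 scale. With all libraries the log2 value was 2.07 ± 0.24 (SE, 95% interval 1.53 to 2.61; adjusted p = 0.000424, edgeR).

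Oasl2, the OAS-like gene whose mouse product keeps synthetase activity, stood at 305, 281 and 331 CPM in TpMo-derived libraries and at 105, 102 and 62.5 CPM in Ly6Chi-derived libraries. Ly6Chi-derived replicate 3 was lower than both others of its group. Oasl2 rose 3.4-fold (log2 fold change 1.77 ± 0.17, SE; adjusted p = 0.000137, edgeR).

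Oas1b and Oas1c were measured at low depth. Oas1b is the mouse flavivirus resistance gene, which carries a premature stop in most laboratory strains, and it is annotated as a polymorphic pseudogene. It received 71, 88 and 83 counts in TpMo-derived libraries and 76, 46 and 34 in Ly6Chi-derived libraries. The ranges overlapped in CPM, since Ly6Chi-derived replicate 1 (2.76 CPM) exceeded TpMo-derived replicate 1 (2.18 CPM). The log2 fold change was 0.72 ± 0.53 (SE), and its 95% interval of -0.46 to 1.9 held both no difference and the rise seen for Oas1a.

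Oas1c, a further copy in the mouse Oas1 array, received 125, 85 and 65 counts in TpMo-derived libraries and 84, 62 and 75 in Ly6Chi-derived libraries. Its highest value was in a TpMo-derived library (3.84 CPM) and its lowest in a Ly6Chi-derived one (2.27 CPM), with overlap between. The log2 fold change was 0.36 ± 0.42 (SE), with a 95% interval of -0.57 to 1.29. This interval held both no difference and the fitted rise of Oas3 (1.03). It stopped short of the fitted value of Oas1a (1.33) but overlapped the interval of Oas1a (1.13 to 1.54). Neither gene differed detectably at this depth. The exons of Oas1c share 227 bases with the overlapping model Gm43069 and those of Oasl1 share 38 bases with Gm13822, and reads that fall on both genes are left out by the counting program's defaults.

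All 8 members lie on chromosome 5 (GRCm38). Oasl2 (114896936-114912234) and Oasl1 (114923240-114937915), both on the plus strand, form a pair that spans 41.0 kb. The other 6 members span 177 kb in the order Oas2 (120730333-120749853), Oas3 (120753098-120777661), Oas1c (120800194-120812514), Oas1b (120812635-120824163), Oas1g (120876142-120887613) and Oas1a (120896256-120907521). Of these only Oas1b is on the plus strand. The 2 members that were not called, Oas1c and Oas1b, lie side by side between the called members Oas3 and Oas1g.

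None of the tested genes beside the members was called. Among the 3 nearest protein-coding genes on each side of both clusters, 12 in all, 4 had enough counts to test. The edgeR test called 0 of them, with 0 also at an unadjusted p under 0.05. Over all genes tested 12.3% were called, so 0 of 4 says little about the surroundings of the members. The phosphatase gene Ptpn11, beyond Oas1a, had the lowest unadjusted p of the 4 (0.0969), and its log2 fold change was -0.19 ± 0.11 (SE). 2210016L21Rik, 4.24 kb from Oasl1, had a log2 fold change of -0.17 ± 0.16 (SE). The other 8 neighbours were too low to test, among them Oas1d, which had no count in any library.

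**Figure D4:**
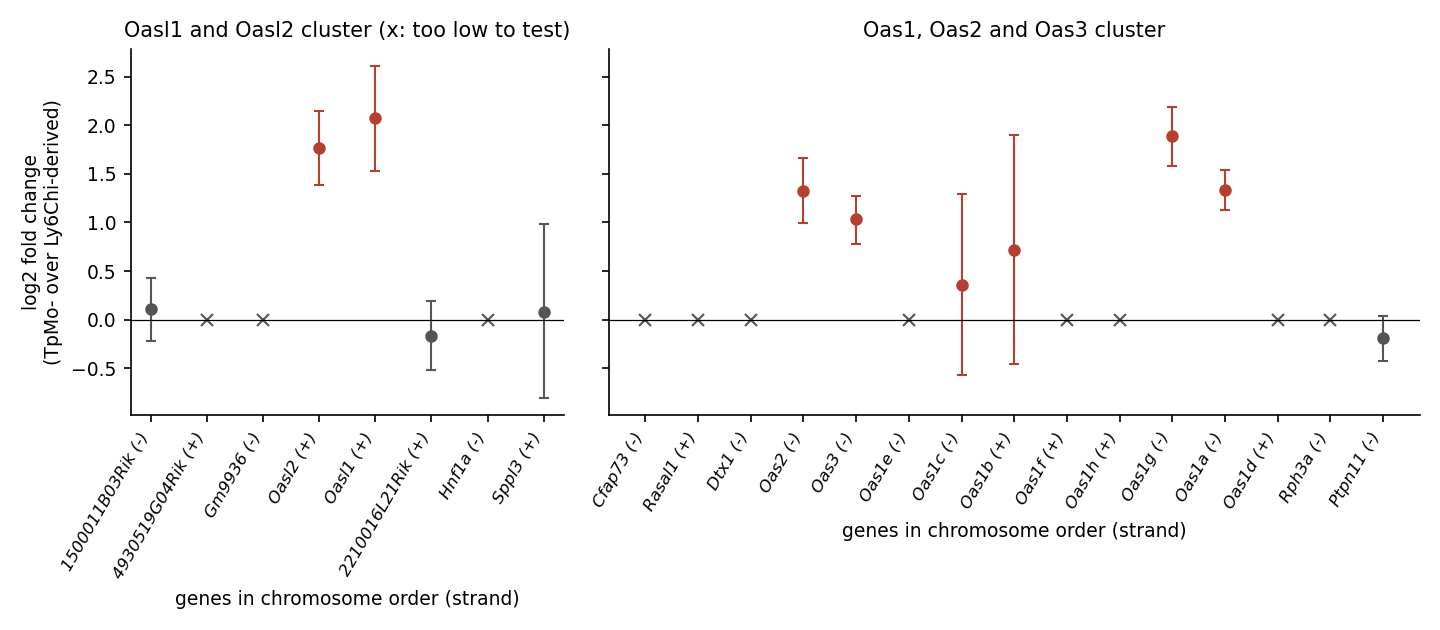
Log2 fold change with its 95% interval for the genes of both chromosome 5 clusters and their neighbours, in chromosome order (not to genomic scale) with the strand in brackets. Members are red and other genes grey, and a cross on the 0 line marks a gene too low to test; the intervals of the 4 tested neighbours include 0, those of 6 members do not.

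The members are unequal in sequence, which bears on how they could be counted. Over their 1101 coding bases, Oas1a and Oas1g were identical at 96.7% of positions, by alignment of GENCODE M21 coding sequences. Oas1a matched Oas1b at 80.1% and Oas1c at 76.2% of aligned bases. Oasl1 and Oasl2 shared 62.3%. Of all 51-base stretches in Oas1a transcripts, the length of 1 read, 57.0% occur also in another gene, each of them in Oas1g. For Oas1g the share was 45.2%, for Oas1c 14.7% and for Oas1b 2.83%, whereas Oas2 and Oasl1 had none and Oas3 and Oasl2 under 1%.

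Reads from such shared stretches can map to more than 1 place, and those that do are left out by the counting program's defaults. A mate in an unshared stretch can still place its pair. The shares above therefore count stretches, and the share of reads lost was not measured. Of the 360 shared stretches of Oas1c, 153 occur in Gm43069, whose exons overlap those of Oas1c. Levels of Oas1a and Oas1g are therefore uncertain. The same counting rule applied to all 6 libraries.

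Levels were next compared between members per length, as CPM per kilobase of the gene length given in the deposited table. In TpMo-derived macrophages Oas1a was highest at 114 ± 11 (SD, n = 3), ahead of Oasl2 at 48.0 ± 3.89. Oas1g (37.7 ± 2.57) and Oas3 (36.8 ± 5.76) followed with overlapping ranges. Oas2 (21.5 ± 0.456) and Oasl1 (20.2 ± 6.09) overlapped as well. Oas1b (1.51 ± 0.373) and Oas1c (1.36 ± 0.215) came last and could not be ordered.

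In Ly6Chi-derived macrophages Oas1a again led, at 45.2 ± 1.31 CPM per kilobase (SD, n = 3). Oas3 was the next at 18.0 ± 0.906, above Oasl2 at 14.1 ± 3.72. Oasl2 overlapped with Oas1g (10.2 ± 1.31) and Oas1g with Oas2 (8.6 ± 1.82). Oasl1 stood at 4.8 ± 0.926, clear of both sides, and Oas1c (1.06 ± 0.18) and Oas1b (0.92 ± 0.432) were again inseparable. The order of Oasl2 and Oas3 thus differed between the groups on this length. With the longest transcript as the length, Oasl2 came before Oas3 in TpMo-derived macrophages (97.9 and 55.1), where its range overlapped that of Oas1a, while in Ly6Chi-derived macrophages Oasl2 and Oas3 overlapped (28.8 and 27.0) and could not be ordered. With the 51-base stretches found in no other gene as the length, a choice made after seeing the data, Oas1a stood at 272 and Oas1g at 68.9 CPM per kilobase in TpMo-derived macrophages, the first and second positions.

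The make-up of the family's counts is given next, as a description. Oasl2 supplied 30.7%, 29.7% and 29.3% of the family's counts in TpMo-derived libraries and 25.2%, 26.5% and 18.2% in Ly6Chi-derived libraries. Oas3 supplied 22.3%, 26.9% and 26.9% in TpMo-derived and 31.5%, 31.1% and 38.3% in Ly6Chi-derived libraries. The shares of Oasl2 were the higher in TpMo-derived libraries and those of Oas3 the lower, with no overlap for either gene. Longer genes draw more reads, so these shares describe counts and not molecules.

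The shares of Oas1g (8.63 ± 0.196% against 6.24 ± 0.291%, SD, n = 3) and Oasl1 (5.09 ± 1.09% against 3.28 ± 0.572%) were higher in TpMo-derived macrophages without overlap. The share of Oas1c was lower without overlap (0.323 ± 0.0682% against 0.667 ± 0.0739%). Its level was not lower, with means of 3.27 CPM in TpMo-derived and 2.55 CPM in Ly6Chi-derived macrophages and overlapping ranges. How often shares separate in other gene families was not computed. The shares of Oas1a, Oas2 and Oas1b overlapped. Shares of a whole are bound to each other, so a higher share of 1 member lowers the shares of the rest.

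Ratios between members were then taken within each library. Among the 28 pairs, 18 had ratios that did not overlap between the groups. The pairs reuse the same 8 members and so are not independent. The share of such pairs among other genes was not computed. An exact two-sided permutation test of 3 against 3 libraries cannot fall below 0.1, which is the p of each of these 18 pairs (0.156 after adjustment over the 28). None therefore passes 0.05 on this design. Between the near copies, the log2 ratio of Oas1a to Oas1g was 1.28 ± 0.09 (SD, n = 3) in TpMo-derived and 1.84 ± 0.14 in Ly6Chi-derived macrophages, a difference of -0.56. These are ratios of CPM, which move with the length used for each gene, whereas their difference between the groups does not. The ratio was lower in each TpMo-derived library than in each Ly6Chi-derived one.

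The log2 ratio of Oas1g to Oas3 differed by 0.87 between the groups and that of Oas3 to Oasl2 by -0.78, both without overlap. The ratio of Oas1c to Oas1g differed by -1.53. Among the 18 pairs the difference was widest for Oas1c to Oasl1, at -1.68. Oas1c was measured at low depth, with means of 3.27 CPM in TpMo-derived and 2.55 CPM in Ly6Chi-derived macrophages. The other 10 pairs overlapped between the groups, with differences from -0.01 for Oas1a to Oas2 up to -0.7 for Oas2 to Oasl1 in size.

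Among 7 further genes of the 2-5A pathway, 3 had enough counts to test. The edgeR test called 0 of the 3, with 0 also at an unadjusted p under 0.05, and DESeq2 and limma-voom called 0 as well. Over all genes tested 12.3% were called by edgeR, so 0 of 3 says little about this list. The 95% interval of Akap7, from -0.23 to 2.0 on the log2 scale, also leaves room for a rise. Pde12 encodes a mitochondrial phosphodiesterase that breaks down 2-5A, and its log2 fold change was -0.02 ± 0.13 (SE). Akap7, whose product carries a domain that cleaves 2-5A, was low and scattered, between 1.5 and 6.2 CPM over the 6 libraries, and its log2 fold change of 0.89 ± 0.5 (SE) did not pass (adjusted p = 0.33, edgeR). Abce1, which encodes a ribosome recycling factor, did not pass either, at 0.13 ± 0.07 on the log2 scale (SE; adjusted p = 0.312, edgeR).

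The remaining 4 genes of that list are further Oas1 copies and were too low to test. Oas1d and Oas1f had no count in any library. Oas1e had 1 count in each of 3 libraries. Oas1h had 4 counts in TpMo-derived replicate 1 and 12 in Ly6Chi-derived replicate 2, and 0 elsewhere. The floor of 3 counts corresponds to between 0.0908 and 0.126 CPM of the library totals, for counting error only. Both mates of a fragment can be counted, so this floor may understate that error.

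In the list of other sensors of double-stranded RNA, which also holds an adaptor and an editing enzyme, 7 of 9 tested genes rose. None was lower and the median log2 fold change was 1.04, while 6.54% of all genes tested were called higher. Zbp1, a sensor of Z-form nucleic acid, rose by 2.49 ± 0.33 on the log2 scale (SE). The RIG-I-like receptor genes Dhx58 (1.73), Ddx58 (1.38) and Ifih1 (1.04) rose, as did Ddx60 (2.04). Adar, which edits double-stranded RNA, rose by 0.71, and Eif2ak2, which encodes the kinase PKR, rose by 0.57. Mavs, the adaptor below RIG-I and MDA5, and the endosomal receptor gene Tlr3 did not pass the test (-0.15 and -0.43).

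Of the interferon transcription factors, 3 of 5 tested genes rose and none fell (median log2 fold change 0.76). Irf7, the gene whose mRNA is the known target of Oasl1, stood at 274, 199 and 281 CPM in TpMo-derived libraries and at 39.0, 39.6 and 21.9 CPM in Ly6Chi-derived libraries. The groups were far apart, and Irf7 rose 7.51-fold (log2 fold change 2.91 ± 0.22, SE; adjusted p = 3.38e-05, edgeR). Stat2 and Irf9, which encode partners in binding the response element, rose by 1.15 and 0.76 on the log2 scale. Irf1 (0.34) and Irf3 (0.35) did not pass the test.

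Among the receptors and their kinases, 3 of 7 tested genes rose and none fell, with a median log2 fold change of 0.15. Of these calls 2 were left when any 1 of the 6 libraries was left out, without TMM scaling, or at an adjusted p under 0.01. The type I interferon receptor genes Ifnar1 and Ifnar2 rose by 0.38 and 0.43, and Ifngr1 by 0.64, on the log2 scale, with Ifnar2 nearest to the threshold (adjusted p = 0.0441, edgeR). Jak1, Tyk2, Jak2 and Ifngr2 did not pass the test. Of 21 interferon ligand genes, 20 had no count in any library, Ifnb1 among them. Ifnz had 10 counts in TpMo-derived replicate 3 and 0 elsewhere. RNA from the sorted cells or from earlier days of culture was not measured.

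Usp18, a feedback inhibitor at the type I receptor, rose by 2.13 on the log2 scale, while the other 2 genes of its list, Socs1 and Socs3, did not pass the test. Of 12 other interferon-induced antiviral genes 11 rose, none fell, and Mx2 did not pass (adjusted p = 0.155, edgeR). Their median log2 fold change was 2.96, beside 1.33 for the OAS family. Ifit3 (4.97), Ifi44 (5.19), Mx1 (3.04) and Rsad2 (2.88) had larger fitted log2 fold changes than any OAS member. The value of Ifi44 rests on low counts in Ly6Chi-derived libraries (0, 26 and 60), and its 95% interval was 3.64 to 6.74. Xaf1 (1.86) and Bst2 (1.7) also rose but lay below Oasl1 and Oas1g. The differences between genes were not tested.

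**Figure D5:**
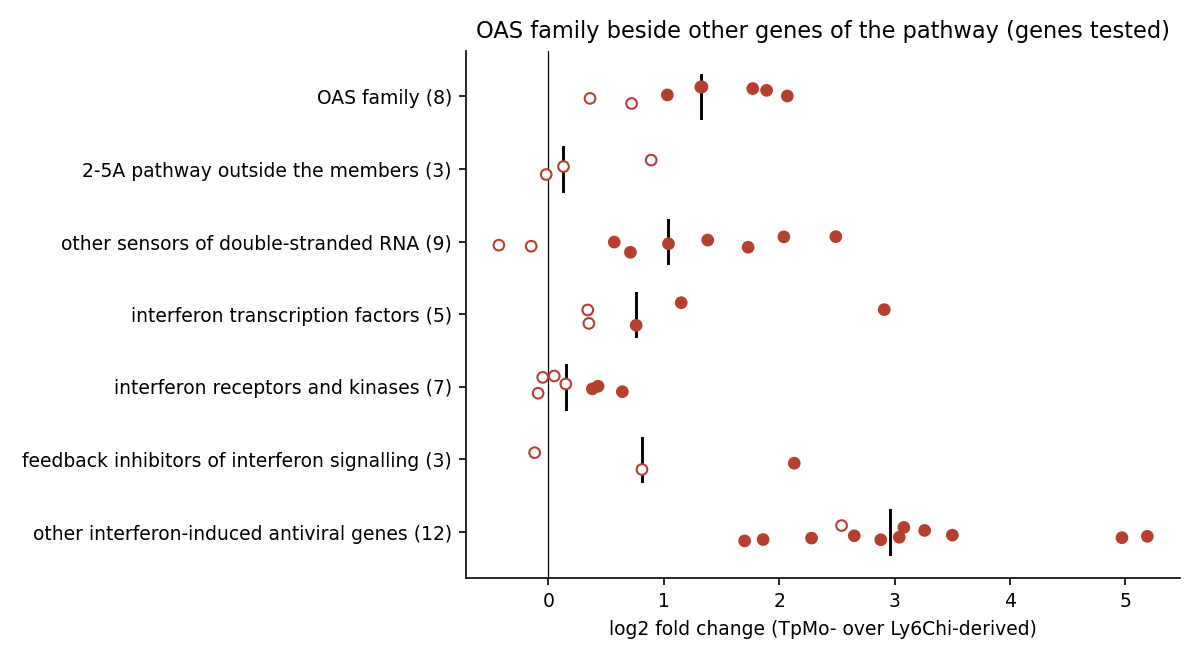
Log2 fold change (TpMo-derived over Ly6Chi-derived) of each tested gene in the OAS family and in 6 lists of related genes, with the number tested in brackets. Filled circles passed an adjusted p of 0.05, open circles did not, and black bars are list medians, at 1.33 for the family and 2.96 for the other antiviral genes; vertical scatter within a list has no meaning.

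The genes most like the family in pattern were found by Pearson's r over the 6 libraries between log2 CPM and the mean centred log2 CPM of the 8 members. That mean was 0.62, 0.56 and 0.79 in TpMo-derived and -0.44, -0.64 and -0.89 in Ly6Chi-derived libraries. Among the 9230 non-members averaging 5 CPM or more, 346 had r of 0.95 or more. The nearest 5 were Mthfd1l (0.9978), which encodes a mitochondrial folate enzyme, Sp100 (0.9976), a nuclear body component, Ifi204 (0.9973), Trim30a (0.9966) and Ifit2 (0.9966). The 6 points fall into the 2 groups, so r here describes largely the gap between the groups.

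Library totals ran from 23765773 to 33042094 counts. As a check of the macrophage label, 8 of 8 macrophage marker genes were measured and summed to between 28910.3 and 37794 CPM in each library. Of them 4 were higher and 1 lower in TpMo-derived macrophages. Lyz2 made up most of the sum, with means of 25681 CPM in TpMo-derived and 23319 CPM in Ly6Chi-derived macrophages. Mertk was the lowest, at 36.4 and 40.1 CPM. Of 39 markers of other cell types in 10 lists besides monocytes, 24 had no count, and the highest group mean was 2.41 CPM (Ppbp). The sums of a pair of these lists were higher in TpMo-derived macrophages without overlap, as were the members. The 5 plasmacytoid dendritic cell markers, a type known for interferon output, summed to between 0.965 and 2.42 CPM in TpMo-derived and between 0.145 and 0.952 CPM in Ly6Chi-derived libraries, with Siglech, Klk1 and Pacsin1 at 0 in all 6. The 3 megakaryocyte markers summed to between 1.11 and 3.12 CPM against 0 to 0.732 CPM. The 3 monocyte markers summed to between 4.38 and 8.2 CPM against 2.14 to 5.38 CPM, with overlap. The part of these cell types in the levels of the OAS genes was not tested.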

How the data were processed

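RNA was sequenced from 3 libraries of TpMo-derived and 3 of Ly6Chi-derived macrophages, grouped by the labels. Replicate numbers follow accession order and only name a library. The deposited values are the authors' raw read counts, 1 row per gene. Per the file headers, featureCounts 1.6.3 counted reads over exons of GENCODE M22, with no option set for pairs, strand or multi-mapped reads. By that program's defaults both mates were counted, strand was ignored, and reads with several places or genes were left out. Per the submitters' processing notes, STAR aligned reads to GRCm38, with no version given there. Symbols came from GENCODE M21, where 55394 identifiers matched and 93 did not.

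Counts were tested in R 4.3.3 with edgeR 4.0.16 (quasi-likelihood test, TMM, robust, filterByExpr with a minimum count of 10), over 13140 genes with no covariate. Adjusted p-values are Benjamini-Hochberg over all genes tested. CPM uses TMM-scaled library sizes. Log2 CPM used a prior count of 2. Alternatives used DESeq2 1.42.0, limma 3.58.1 (voom), other scalings, filters and thresholds, and each library left out in turn. The scripts were tested on simulated data. Alignments of coding sequences used Biopython 1.88, and promoters came from RefSeq (GRCm38.p6). Library totals lay between 23765773 and 33042094 counts. The floor of 3 counts covers counting error only, and reads carry no molecular identifiers. The 95% intervals of fold changes come from the edgeR fit and include the spread among the libraries.

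The 8 members were matched by symbol. The genes that could be named were every member, the pathway lists, the 3 protein-coding neighbours on each side of each cluster, the 5 genes most alike in pattern, and markers as a check. Of the genes in the pathway lists, 2 are not reported here and their lists are counted without them. The members and lists were chosen with earlier results of these data known.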

Additional observations from a re-analysis of the deposited data

How the results depend on the processing

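The calls of the 6 members that rose were kept in 12 of 12 alternative fits, with adjusted p no higher than 0.00513 (Oasl1). Leaving out each library in turn gave log2 fold changes of 1.29 to 1.41 for Oas1a, 1.8 to 1.98 for Oas1g, 1.2 to 1.5 for Oas2, 0.9 to 1.13 for Oas3, 1.83 to 2.27 for Oasl1 and 1.56 to 1.89 for Oasl2. Oas1b (0.43 to 1.13) and Oas1c (0.23 to 0.5) were called in 0 of 11 alternative fits each, and the filter of at least 5 CPM in 3 libraries removed both.

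The counts over all genes moved more than those of the members. DESeq2 called 1176 genes lower, against 761 in edgeR, but it was run on 21503 genes and edgeR on 13140. On the same 21503 genes without a count filter edgeR called 910 lower. At an adjusted p under 0.01, 454 were higher and 331 lower. With a library left out, 531 to 750 genes were higher and 445 to 742 lower, where the arm with fewer libraries makes the test weaker by construction. Without Ly6Chi-derived replicate 2 both counts were the lowest. Over the alternatives the calls ranged from 5 to 7 genes in the list of double-stranded RNA sensors. They ranged from 2 to 3 of the receptors and kinases and from 10 to 11 of the other antiviral genes.

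The order of members by level per length depended on the length used. With the longest transcript, Oas3 took position 3 and Oas1g position 4 in TpMo-derived macrophages, and Oasl2 position 2 and Oas3 position 3 in Ly6Chi-derived ones. With the stretches of 51 bases found in no other gene, a choice made after seeing the data, Oas1g took position 2, Oasl2 position 3, Oas1c position 7 and Oas1b position 8 in TpMo-derived macrophages. In Ly6Chi-derived ones Oas1g took position 2, Oas3 position 3 and Oasl2 position 4. No paired analysis was possible because the labels give no replicate numbers.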

Other observations

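Some low counts were uneven among the libraries of a group. Klrb1c, an NK cell marker, had 17 counts in Ly6Chi-derived replicate 1 and 37 in Ly6Chi-derived replicate 2, and 0 in the other 4 libraries. Ccr9, in the plasmacytoid dendritic cell list, had 58, 0 and 40 counts in the TpMo-derived and 4, 18 and 6 in the Ly6Chi-derived libraries. Among the Oas1 copies on chromosome 5, Oas1h was read in 1 library of each group, with 4 and 12 counts, while its neighbour Oas1f had none.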
